A study of Arabidopsis thaliana with 6 samples.

Results

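Cytochrome P450 and UDP-glycosyltransferase genes were followed as probe sets assigned to exactly 1 gene whose symbol begins with CYP7, CYP8, CYP9 or UGT and further digits, with a mean signal of 25 or more over the 6 arrays. Of 22746 probe sets for genes, 71 carried such a symbol and 41 reached the signal floor. Each of the 41 stood for a different gene. They comprised 27 UGT genes, 13 P450 genes and 1 gene, CYP71 (AT3G44600), whose symbol fits the rule but which encodes cyclophilin 71, a WD40-repeat peptidyl-prolyl isomerase, and no P450. It is given apart from the P450 genes. Of the 13 P450 genes, 12 belong to the CYP71B subfamily and the other is CYP78A9, so the P450 results are largely results on CYP71B. This follows from the names available, since only 23 P450 probe sets of any signal carried such a symbol, 19 of them CYP71B. P450 genes without such a symbol in the annotation were not followed, so the members do not show which P450 genes the seedlings express.

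Cytochrome P450 enzymes are haem-thiolate monooxygenases that insert oxygen into small molecules, and in plants they build hormones, phenylpropanoids, glucosinolates, terpenoids and defence compounds. UGTs move a sugar, usually glucose from UDP-glucose, onto hormones, flavonoids, lignin precursors and foreign compounds, which alters their solubility, activity and storage. Both families are large in Arabidopsis, and many of their genes lie side by side as tandem copies. The CYP71B subfamily is one of the largest P450 groups of this plant, and substrates of most of its members are not assigned.

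The study concerned nuclear transcripts in seedlings whose chloroplast division is inhibited. Which gene the inducible construct carries is not given in the labels. Prolonged induction seedlings were sown on the inducer estradiol (labelled 7-B-estradiol in both induced groups and 17-B-estradiol in the control) and sprayed with it at 2 µM every 24 h until harvest. Temporal induction seedlings received a single 2 µM spray at day 13, 24 h before harvest, and control seedlings, which carried the empty vector PER-10, received that same single spray. All were T-DNA lines, were grown in constant light, and were harvested whole at 14 days with 4 rosette leaves. The labels give the background as Ler-1 for both induced groups and Ler-0 for the control. No uninduced seedlings of the induced line were among the groups. An effect of the induced construct and a difference between the lines therefore cannot be told apart. No empty-vector seedlings had the prolonged exposure to estradiol. In prolonged over control, an effect of that longer exposure cannot be told apart from these either. Each group had 2 Affymetrix ATH1 arrays. Whether a pair came from separate cultures is not stated, so the p-values cover only the spread between these arrays, which may be technical. In whole seedlings, fewer cells of a type and less RNA per cell cannot be told apart.

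Signals are the deposited intensities, which had been scaled to the same trimmed mean of 100.01 on every array, and median signals ran from 53.1 to 58.8. The 3′ over 5′ signal ratio of the GAPDH control probe sets, a check on RNA quality, was less even. It was 1.82 and 2.38 in control, 2.22 and 2.67 in prolonged induction, and 2.43 and 2.48 in temporal induction arrays. Its part in the results was not tested. Precision is limited by the 2 arrays of each group. Of the 41 members 39 entered the test, which was a limma fit of log2 signal over all 15922 probe sets left after the 30% with the lowest mean signal, those at 27.7 or less, were removed. A gene is said to have risen or fallen only where its Benjamini-Hochberg adjusted p over all of these probe sets was under 0.05. The arrays of a group differed by a median SD of 0.35 log2 units over the tested members, against 0.29 over all tested probe sets. The SD was 0.07 for UGT80B1 and 1.20 for UGT76D1, the extremes among members.

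After prolonged induction 2 P450 genes rose, CYP71B23 and CYP71B26, and 1 UGT gene fell, UGT72E2, a glucosyltransferase of lignin precursors. These 3 calls among 39 tested members stand against 7.0% of all tested probe sets called in that comparison (3.76% rose and 3.23% fell), so the share of members called lay near the background. The median log2 fold change over the tested members was 0.05, with 21 above 0 and 18 below, and over all tested probe sets it was −0.02. Both prolonged arrays lay above both control arrays for 11 of the 39 and below for 6, where the same held for 23.3% and 24.7% of all tested probe sets (48.0% in either direction). Log2 fold changes of 1 or more in size were found for 4 members, against 12.2% of all tested probe sets, and an unadjusted p under 0.05 for 4, against 20%.

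CYP71B23 (AT3G26210) read 167 and 152 in prolonged induction arrays, 97.3 and 109.8 in temporal induction arrays, and 57.9 and 69.4 in control arrays. Its 3 groups did not overlap, with prolonged induction highest and control lowest. It rose in prolonged induction to 159.6 ± 10.9, against 63.7 ± 8.13 in control (SD, n = 2 arrays each), a 2.51-fold difference (log2 fold change 1.33 ± 0.25 SE, limma adjusted p = 0.00933). Temporal induction over control gave a log2 fold change of 0.70, which did not pass (adjusted p = 0.210). Prolonged over temporal induction gave 0.63, and that difference did not pass either (adjusted p = 0.758, 95% interval 0.07 to 1.18). The rise did not pass without prolonged replicate 1, where the log2 fold change was 1.26 and the adjusted p 0.0732, nor without the intensity trend of the fit (0.0916).

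CYP71B26 (AT3G26290) showed the same order of groups. It read 219.9 and 169 after prolonged induction, 143 and 134 after temporal induction, and 64.2 and 78.9 in control. The 3 groups again did not overlap. It rose in prolonged induction 2.71-fold over control (log2 fold change 1.44 ± 0.24 SE, limma adjusted p = 0.00480). For temporal induction over control the log2 fold change was 0.96 ± 0.24 SE and missed the threshold (adjusted p = 0.0701), and for prolonged over temporal induction it was 0.47 (adjusted p = 0.866, 95% interval −0.06 to 1.01). Without prolonged replicate 1 the rise over control was 1.24 on the log2 scale and did not pass (adjusted p = 0.0542), and without the intensity trend the adjusted p was 0.0965.

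**Figure D1:**
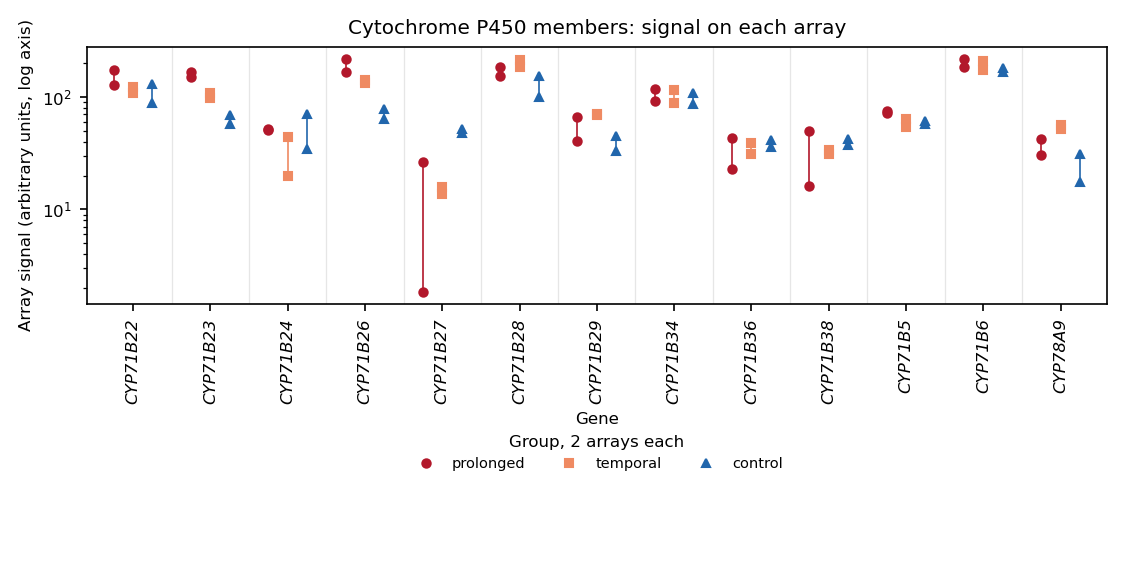
Signal (arbitrary units, log axis) of the 13 P450 members on each array, with 2 points per group joined by a line for prolonged induction (circles), temporal induction (squares) and control (triangles). For CYP71B23 and CYP71B26 all 4 induced arrays lie above both control arrays, and for CYP71B27 all 4 lie below. CYP71B27 reached the signal floor only with its control arrays.

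Both genes lie in one tandem run on chromosome 3. In the TAIR10.1 gene order this run spans 20 protein-coding genes from CYP71B16 to CYP71B37, of which 16 are CYP71B genes. Of these, 11 had a probe set of their own and 6 were members. The other 4 members of the run did not pass, and whether they differ from CYP71B23 and CYP71B26 was not tested. CYP71B22, next to CYP71B23, read 127 and 175 after prolonged induction, against 89.2 and 129 in control, and these groups overlapped. CYP71B34, next to CYP71B26, read 117 and 92.1 after prolonged induction and 109.5 and 86.3 in control, where the groups overlapped too. Neither passed, with log2 fold changes of 0.47 (95% interval −0.12 to 1.06) and 0.10 (−0.51 to 0.70). CYP71B24 and CYP71B36 had log2 fold changes of 0.05 ± 0.57 and −0.30 ± 0.60 SE. Members of such runs are close copies, so how far a probe set also binds a neighbouring transcript was not tested.

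**Figure D2:**
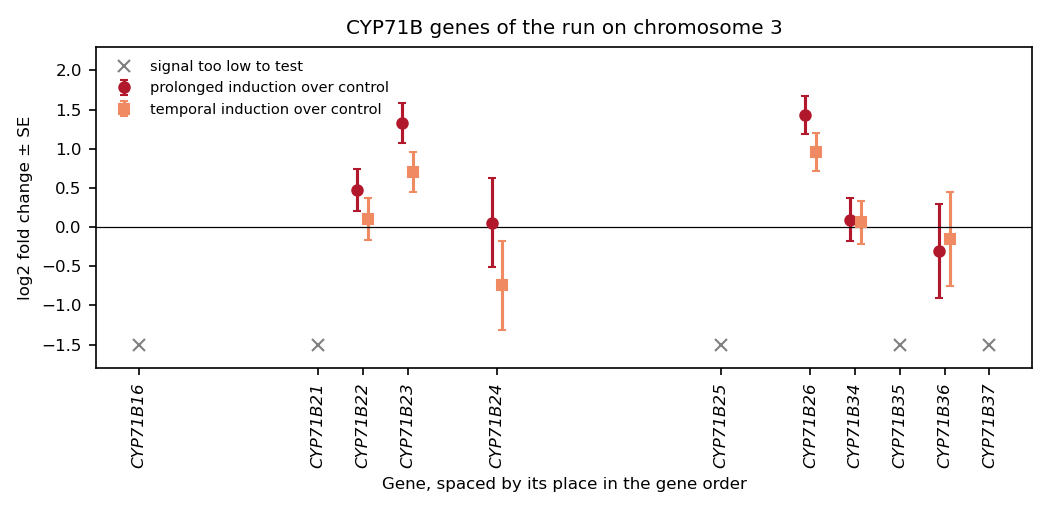
Log2 fold change ± SE (vertical axis) of the CYP71B genes of the chromosome 3 run, placed by their order among 20 genes (horizontal axis), for prolonged induction over control (circles) and temporal induction over control (squares). CYP71B23 and CYP71B26 lie at 1.33 and 1.44 after prolonged induction, CYP71B22 at 0.47 and the other 3 measured genes between −0.30 and 0.10, while crosses mark 5 genes whose signal was too low to test.

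The range over the CYP71B members is given first with CYP71B23 and CYP71B26 included. Over the 11 tested the log2 fold change for prolonged induction over control ran from −0.49 (CYP71B38) to 1.44 (CYP71B26), with 2 rises and no fall called (3.76% and 3.23% of all tested probe sets), and for temporal induction from −0.74 (CYP71B24) to 0.96 (CYP71B26), with no call. Without CYP71B23 and CYP71B26 the highest values were 0.47 (CYP71B22) for prolonged and 0.87 (CYP71B29) for temporal induction. CYP71B38 read 16.2 and 50.2 in prolonged induction arrays, on either side of its control arrays at 37.7 and 42.5. CYP71B28 and CYP71B29 are adjacent on chromosome 1. CYP71B28 read 184 and 153 after prolonged induction, 186.5 and 214 after temporal induction, and 100.2 and 155 in control. CYP71B29 read 40.9 and 66.8, 71.3 and 69.8, and 33.3 and 44.9 in the same 3 groups. In both genes only the temporal arrays stood clear of control, and neither passed, with temporal over control log2 fold changes of 0.68 and 0.87 (adjusted p = 0.209 and 0.374). CYP71B6, which acts on indole-3-acetonitrile in the indole branch of defence metabolism, read 185 and 219 after prolonged induction, 175 and 210.3 after temporal induction, and 166 and 181 in control. Its prolonged over control log2 fold change was 0.22, with a 95% interval from −0.22 to 0.65. CYP71B5 gave 0.31 ± 0.33 SE in that comparison.

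CYP71B27 was a member but did not enter the test, with a mean signal of 26.4. It read 1.85 and 26.5 after prolonged induction, 13.8 and 15.9 after temporal induction, and 48.2 and 52.3 in control. All 4 induced arrays were below both control arrays. Signals in that range lie among the probe sets removed as low, so no fold change is given. CYP78A9, of a P450 group that promotes organ growth, read 41.9 and 30.7 after prolonged induction, 51.9 and 56.3 after temporal induction, and 17.4 and 31.3 in control. Its temporal arrays stood above the other 4, but the log2 fold change of 1.21 over control did not pass (adjusted p = 0.374). The cyclophilin gene CYP71 read 171 and 190.3 after prolonged induction, 185 and 197.7 after temporal induction, and 225 and 197.8 in control, with prolonged over control at −0.22 on the log2 scale (95% interval −0.64 to 0.19).

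Among UGT genes of phenylpropanoid and flavonoid metabolism, 7 were tested, of which 1 fell after prolonged induction and 0 rose, against 3.23% and 3.76% of all tested probe sets. Their median log2 fold change was −0.41 for prolonged induction and −0.08 for temporal induction, where it was −0.02 and −0.00036 over all tested probe sets. The gene that fell, UGT72E2 (AT5G66690), encodes the enzyme that glucosylates the monolignols coniferyl and sinapyl alcohol. It read 169 and 145 after prolonged induction, 258 and 228 after temporal induction, and 257 and 285 in control. Its prolonged arrays were the lowest, while temporal and control arrays overlapped. The fall in prolonged induction was to 157 ± 16.6, against 271 ± 19.8 in control (SD, n = 2 each; log2 fold change −0.79 ± 0.18 SE, limma adjusted p = 0.0263). Temporal over control gave −0.15, and prolonged over temporal −0.63 (limma unadjusted p = 0.00553, adjusted p = 0.584).

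The fall of UGT72E2 was the least firm of the 3 calls. With any 1 of the 6 arrays left out it missed the threshold, at an adjusted p of 0.0518 or 0.107 when prolonged replicate 1 or 2 was dropped, 0.0527 or 0.0507 when temporal replicate 1 or 2 was, and 0.0680 or 0.125 when control replicate 1 or 2 was. It also missed after median centring (0.0527), when only the 2 groups were fitted (0.0501) and without the intensity trend (0.175). Its log2 fold change lay between −0.90 and −0.68 with an array left out. Of 7 listed root markers 3 were measured, EXPA7, EXPA18 and PYK10, and 0 of 3 passed. Their summed signal was 2679 to 3872 in prolonged induction arrays, 3698 to 3784 in temporal induction arrays and 4172 to 4813 in control arrays. Nearly all of this sum was PYK10. EXPA18 read 24.1 and 11.5 after prolonged induction, 56.5 and 57.8 after temporal induction, and 60.6 and 66.3 in control. Its prolonged arrays were the lowest, while for EXPA7 and PYK10 the prolonged and temporal arrays overlapped. Prolonged over temporal log2 fold changes were −1.78 for EXPA18, −0.37 for EXPA7 and −0.20 for PYK10. The prolonged over control log2 fold changes were −1.93 for EXPA18, −1.36 for EXPA7 and −0.45 for PYK10 (limma adjusted p = 0.0611, 0.0805 and 0.160), and the lowest reading of any of the 3 was that 11.5. Their part in the result was not tested.

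UGT72E1, a paralogue that acts on coniferyl aldehyde, did not share this profile. It read 264 and 209.8 after prolonged induction, 280.0 and 300.5 after temporal induction, and 184.5 and 187 in control. All 4 induced arrays were above both control arrays, and the temporal arrays were highest. Neither difference from control passed, with log2 fold changes of 0.34 for prolonged induction (adjusted p = 0.334) and 0.64 for temporal induction (adjusted p = 0.108). The third gene of that subfamily, UGT72E3, stayed under the signal floor with a mean of 7.32.

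The UGT78D enzymes attach sugars to the 3 position of flavonols, namely rhamnose (UGT78D1), glucose (UGT78D2) and arabinose (UGT78D3). UGT78D3 read 46.0 and 23.9 after prolonged induction, 11.7 and 14.6 after temporal induction, and 80.2 and 47.2 in control. The 3 groups did not overlap and the temporal arrays were lowest. Temporal over control gave a log2 fold change of −2.23 ± 0.71 SE, which did not pass (limma adjusted p = 0.154). With temporal signals among those removed as low, that value is not exact. UGT78D3 reached the signal floor, and entered the test, only with its control arrays. UGT78D2 read 166 and 152 after prolonged induction, 169.5 and 235 after temporal induction, and 269.7 and 165 in control, and both induced groups overlapped control. UGT78D1 gave log2 fold changes of −0.37 for prolonged induction and −0.55 for temporal induction. No UGT78D gene passed in any comparison.

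UGT84A enzymes form glucose esters of hydroxycinnamic acids such as sinapate. UGT84A4 read 42.7 and 83.5 after prolonged induction, 95.9 and 76.8 after temporal induction, and 88.8 and 92.7 in control. Both prolonged arrays were below control, the first by far more than the second. Its neighbour UGT84A3 read 107 and 127 after prolonged induction and 106 and 127 in control, a log2 fold change of 0.01 with a 95% interval from −0.55 to 0.56.

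Genes for other steps of these pathways gave few values, since most listed genes had no probe set with their name. Of 24 listed names of phenylpropanoid and flavonoid genes 2 were tested, and DFR, the anthocyanin-branch reductase, was the 1 that fell, while HCT did not pass. DFR read 58.9 and 88.0 after prolonged induction, 100.3 and 128 after temporal induction, and 249 and 247 in control. Its log2 fold change was −1.79 for prolonged induction (limma adjusted p = 0.00200) and −1.13 for temporal induction (adjusted p = 0.0463). Of 28 listed glucosinolate genes 2 were tested, and BCAT4, an aminotransferase of methionine chain elongation, rose after prolonged induction with 1980 and 1663, against 1289 and 1307 in control (log2 fold change 0.48, adjusted p = 0.0478). AOP3 did not pass. LYC, the carotenoid gene tested of 14 listed, did not pass. WSD1, a wax ester synthase, was the cutin and wax gene tested of 20 listed. It rose after prolonged induction with 93.7 and 80.9, against 23.6 and 3.11 in control (limma adjusted p = 0.0304). The control signals of WSD1 were among those counted as low, and it entered the test through its induced arrays. No gene of the lists for P450 redox partners, brassinosteroid, jasmonate or gibberellin had a probe set named here.

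UGT74B1 (AT1G24100), which completes the glucosinolate core by glucosylating thiohydroximates, read 576 and 811 after prolonged induction, 578 and 705 after temporal induction, and 739.6 and 390.5 in control. Induced readings lay between the control arrays except for 1 prolonged array above both. The prolonged over control log2 fold change of 0.35 (95% interval −0.23 to 0.93) was −0.11 without control replicate 2.

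Among members listed for hormones only UGT71C5, UGT74D1 and UGT76C2 were tested, and they gave no call. No P450 gene listed for a hormone pathway had a probe set with its name, so those genes were not covered. UGT71C5, which glucosylates abscisic acid, read 56.2 and 28.1 after prolonged induction, 92.8 and 63.9 after temporal induction, and 25.9 and 38.7 in control. Its temporal arrays were above the other 4, at a log2 fold change of 1.28 ± 0.51 SE over control (adjusted p = 0.261). UGT74D1, which acts on auxin and oxidised auxin, read 156 and 123, 146 and 173, and 139.6 and 147 in prolonged induction, temporal induction and control, and its groups overlapped. UGT76C2, a cytokinin N-glucosyltransferase, read 34.8 and 38.5 after prolonged induction, 24.3 and 33.0 after temporal induction, and 25.1 and 79.6 in control, where the spread between the control arrays exceeded every difference between groups. UGT76B1 and UGT71C3, of salicylate and immune metabolism, were just under the signal floor, as was CYP84A4, with means of 23.1, 24.2 and 22.5. The members just inside the floor were CYP71B27, UGT71C1 and UGT85A5, with means of 26.4, 27.1 and 30.1.

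UGT80B1, a sterol glucosyltransferase, read 89.96 and 83.0 after prolonged induction, 105 and 99.3 after temporal induction, and 93.3 and 86.9 in control. Its temporal arrays were above the other 4, at a log2 fold change of 0.18 over control (adjusted p = 0.814). UGT73B1, of a group that responds to stress and foreign compounds, read 91.2 and 97.2 after prolonged induction, 88.5 and 62.6 after temporal induction, and 61.8 and 60.2 in control. Its prolonged arrays were highest, at a log2 fold change of 0.63 ± 0.31 SE (adjusted p = 0.290). UGT87A2, which takes part in flowering time control, read 141 and 126 after prolonged induction, 143 and 157 after temporal induction, and 112 and 107 in control. All of its induced arrays were above control, without passing (adjusted p = 0.515 for prolonged and 0.366 for temporal induction).

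**Figure D3:**
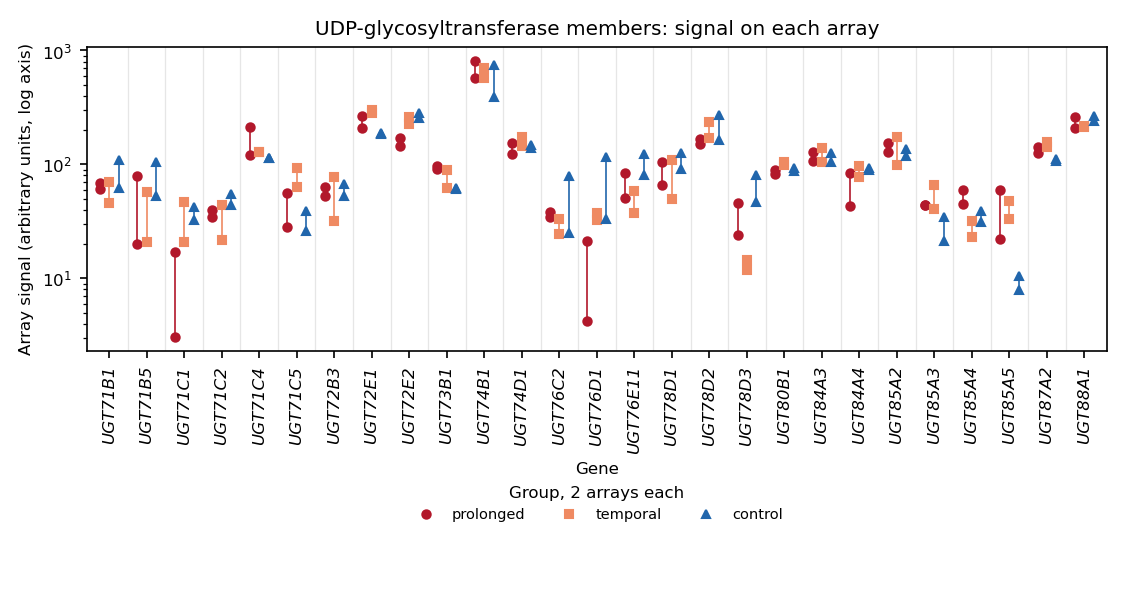
Signal (arbitrary units, log axis) of the 27 UGT members on each array, with 2 points per group joined by a line for prolonged induction (circles), temporal induction (squares) and control (triangles). The prolonged arrays of UGT72E2 read 169 and 145, below its other 4 arrays, and the control arrays of UGT85A5 read 7.83 and 10.5, below its 4 induced arrays.

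UGT85A5, UGT85A2 and UGT85A3 are neighbours on chromosome 1. UGT85A5 read 59.1 and 22.1 after prolonged induction, 47.6 and 33.4 after temporal induction, and 7.83 and 10.5 in control. All 4 induced arrays were above control, and the gene reached the signal floor through them alone. The log2 fold changes of 1.99 ± 0.93 and 2.13 ± 0.93 SE did not pass (adjusted p = 0.261 for prolonged and 0.315 for temporal induction), and with control signals among those removed as low they are not exact. UGT85A3 read 44.4 and 44.3 after prolonged induction, 65.9 and 40.7 after temporal induction, and 21.4 and 34.5 in control. UGT85A2, between UGT85A7 and UGT85A5 in gene order, had log2 fold changes of 0.14 for prolonged and 0.05 for temporal induction. UGT85A4, elsewhere on that chromosome, read 59.9 and 44.5 after prolonged induction, 23.0 and 31.5 after temporal induction, and 38.7 and 31.3 in control. None of the UGT85A genes passed.

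The remaining UGT members were named after their values were seen, so that each is accounted for. UGT76D1 had the lowest prolonged over control value of all tested members, −2.70 ± 0.96 SE (adjusted p = 0.134). It read 21.1 and 4.24 after prolonged induction, 37.7 and 32.4 after temporal induction, and 115 and 33.0 in control, so its control arrays stood far apart. With prolonged signals among those removed as low, its fold change is not exact. UGT76D1 reached the signal floor, and entered the test, only with its control arrays. UGT76E11 read 50.8 and 83.8 after prolonged induction, 58.5 and 37.3 after temporal induction, and 123 and 80.9 in control, with temporal arrays below control (log2 fold change −1.09, adjusted p = 0.214). UGT71C1 was not tested, and read 17.0 and 3.02 after prolonged induction, 46.7 and 20.7 after temporal induction, and 42.6 and 32.5 in control. UGT71C4 read 211.5 and 120.3 after prolonged induction, 128 and 128 after temporal induction, and 114 and 114 in control, so a single prolonged array stood apart. UGT71B1, UGT71B5, UGT71C2, UGT72B3 and UGT88A1 had prolonged over control log2 fold changes between −0.91 (UGT71B5) and −0.04 (UGT72B3) and temporal over control values between −1.11 (UGT71B5) and −0.23 (UGT88A1), and none passed.

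Temporal induction over control gave no call among the 39 tested members in limma, against 2.49% of all tested probe sets (1.75% rose and 0.741% fell). Of the members 20 had a log2 fold change above 0 and 19 below, and it was 1 or more in size for 6, against 9.17% of all tested probe sets. At an unadjusted p under 0.05 there were 8, namely CYP71B23, CYP71B26, CYP71B28, UGT71C5, UGT72E1 and UGT85A5 above control and UGT76E11 and UGT78D3 below, against 14.6% of all tested probe sets. The lowest adjusted p was that of CYP71B26. The temporal and control arrays did not overlap for 19 of 39, with 13 higher and 6 lower, against 46.3% of all tested probe sets (22.7% higher and 23.6% lower). The comparison shares its control arrays with that of prolonged induction, so the values of a gene in the pair of comparisons are not independent.

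**Figure D4:**
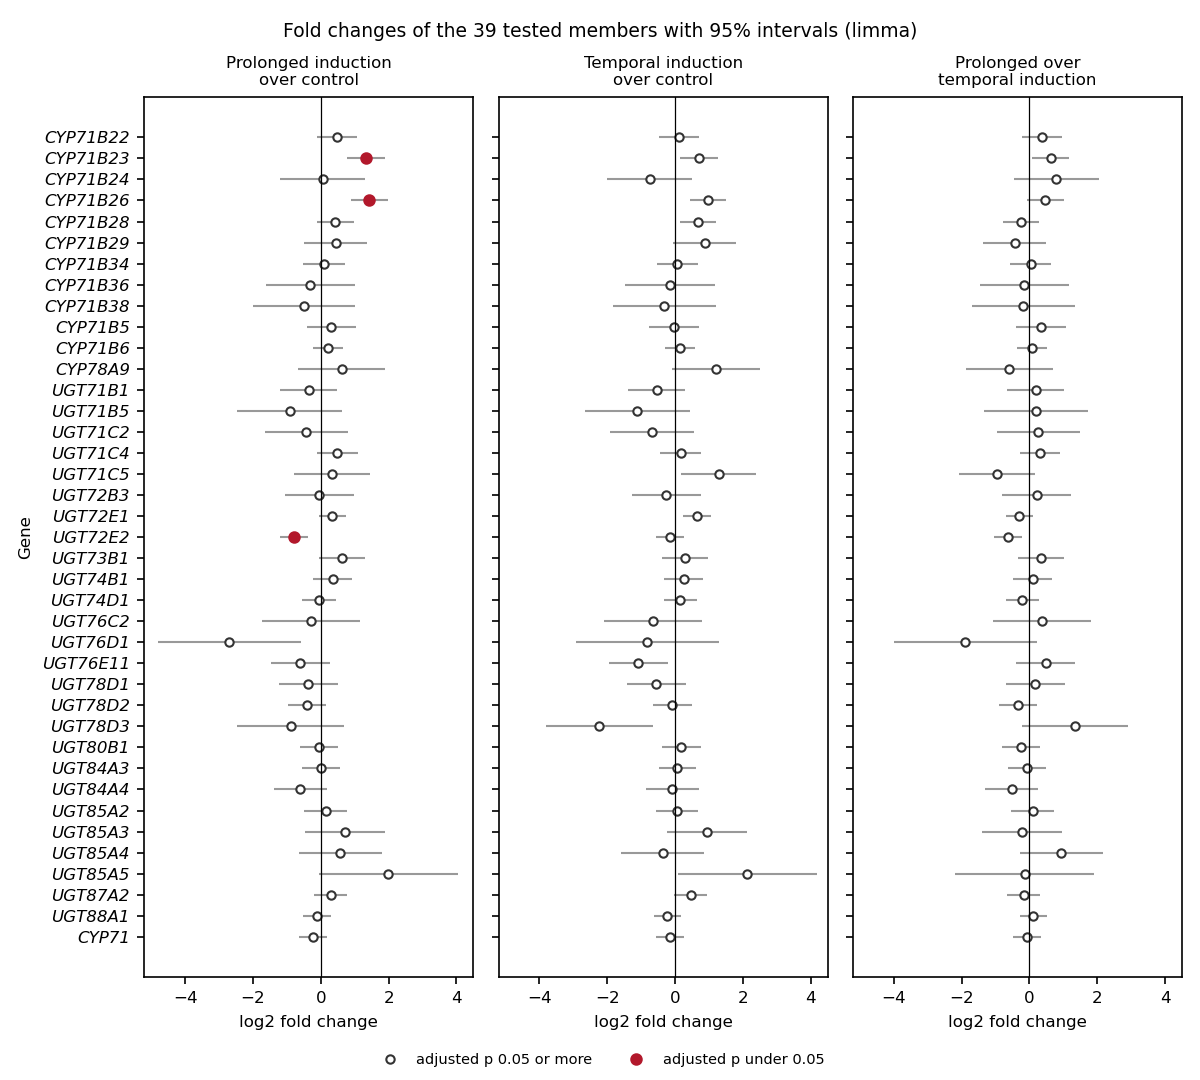
Log2 fold change (points) with 95% intervals (lines) of the 39 tested members for prolonged induction over control, temporal induction over control, and prolonged over temporal induction. Filled points mark the 3 members with an adjusted p under 0.05, CYP71B23, CYP71B26 and UGT72E2, all in the first panel.

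Prolonged over temporal induction also gave no call among the 39, against 0.0879% of all tested probe sets (0.0377% rose and 0.0502% fell). At an unadjusted p under 0.05 there were 2, CYP71B23 above and UGT72E2 below, against 5.98% of all tested probe sets. The arrays did not overlap for 19 of 39, with 9 higher and 10 lower, against 35.0% of all tested probe sets (16.7% higher and 18.3% lower). A log2 fold change of 1 or more in size was found for 2, against 5.26%. The log2 fold changes ran from −1.88 for UGT76D1 to 1.34 for UGT78D3, with a median of 0.07, and none of the 3 calls over control was therefore shown to differ between prolonged and temporal induction.

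**Figure D5:**
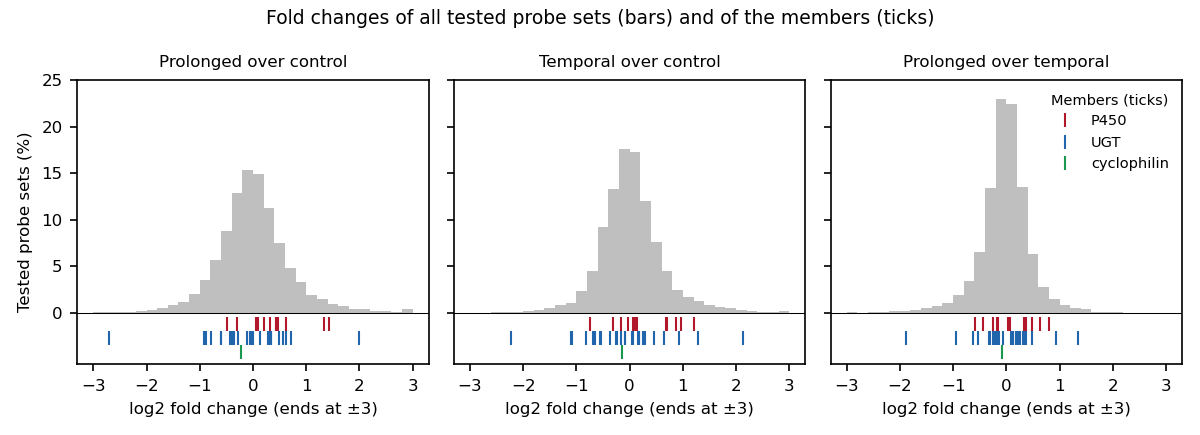
Share of all 15922 tested probe sets (bars, %) by log2 fold change in bins of 0.2, with values past ±3 in the end bins, and the tested members as ticks below in rows for P450, UGT and the cyclophilin gene. Members lie within the spread of all probe sets, with medians of 0.05, 0.05 and 0.07 in the 3 comparisons.

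The 41 members lie on all 5 chromosomes, 14 of them on chromosome 3 and 13 on chromosome 1. Of these, 23 stand in 11 runs, and 7 runs hold 2 or more members. Each run is a stretch of name-matched genes separated by at most 15 places in the order of protein-coding genes. Genes not listed as protein-coding were left out of that order, and CYP71B27 was placed in no run. The 30 name-matched probe sets under the floor had mean signals from 1.78 (UGT76E12) to 24.2 (UGT71C3) and include 7 further CYP71B entries, CYP71B30P among them.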

How the data were processed

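RNA of whole seedlings was measured on 6 ATH1 arrays with one-cycle labelling, per the labels' protocols. Each deposited value is a linear intensity, the signal of 1 probe set on 1 array. The submitters' processing notes name GCOS and MAS5 without versions. The 64 control probe sets were left out. Names came from a platform annotation table, in which 13513 probe sets had 1 gene symbol and 503 several, and gene order from RefSeq TAIR10.1, in which all 41 members matched. The build behind the array is not given in the sources used here, so no coordinates are printed, and no sequences were used.

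Signals were taken to log2, the lowest 30% of probe sets by mean signal (27.7 or less) were removed, and limma 3.58.1 (R 4.3.3) was run on the other 15922 over all 6 arrays, group as the only term, with an intensity trend (3 residual and 8.20 prior degrees of freedom). With 2 arrays a group the median standard error over all probe sets was 0.32 log2 units. On simulated data for prolonged induction over control, 200 of 15922 probe sets were changed. The fit found 17% of changes of 1 log2 unit and 58% of changes of 2, with 5 false among 80 calls. In the data 1114 probe sets were called in that comparison. The share found depends on how many probe sets change, so these rates need not hold for the data.

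Named genes were the called members, members of role lists (the 4 with the smallest p over the 3 groups where a list had more than 6) the extremes of CYP71B, the 3 genes on either side of the signal floor and called genes of the other lists. Further members are named after their values were seen, to account for each. Members and lists were chosen with earlier results of these data known. Alternatives were other normalizations, filters, an offset of 25, no trend, 2-group fits, a signal floor of 50, a block for replicate number, and leaving out each array in turn. A filter on mean log2 signal and leaving out the cyclophilin gene were added after seeing the data. Figures used matplotlib 3.10.9 in Python 3.11.15.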

Additional observations from a re-analysis of the deposited data

Results flagged for a closer look

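A probe set shared by 2 CYP71B genes of the chromosome 3 run stood outside the members, since it is assigned to more than 1 gene, and was above its control level. It read 438 and 307 after prolonged induction, 239.96 and 315 after temporal induction, and 160 and 163 in control. All 4 induced arrays were above both control arrays. Its log2 fold change for prolonged induction over control was 1.19 ± 0.21 SE (limma adjusted p = 0.00673), and for temporal induction 0.77 (adjusted p = 0.0978). The signal cannot be assigned to either gene. It is 1 of 5 probe sets with several genes and a matching name, of which 4 were tested and the other 3 did not pass.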

How the results depend on the processing

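For prolonged induction over control, the 3 calls among members were 0 without the intensity trend and 0 to 2 when 1 array was left out (0 without prolonged replicate 1). Calls over all probe sets were 1114, against 50 without the trend and 629 without prolonged replicate 1. The calls among members were 2 after median centring and in the fit of the 2 groups, and 3 under every other setting tried. The other 2 comparisons gave 0 calls among members under all settings. Same-numbered arrays did not deviate together (correlations of 0.0117, 0.0106 and −0.0580), and with the replicate block the calls were 3, 0 and 0. The 16 tested members named by rule gave 462 values under settings other than leaving out an array. Of these 0 changed sign, 5 lost the call, those of UGT72E2 (3), CYP71B23 and CYP71B26, and 457 kept their side of the threshold. Only the 3 calls could be lost, and most of the 457 belonged to results without a call, so that share does not measure how firm the calls are. With 1 array left out, the sign turned for members without a call. For prolonged over control the log2 fold change then ran from −0.45 to 0.56 (CYP71B24), −1.30 to 0.33 (CYP71B38), −0.17 to 0.83 (UGT71C5), −0.11 to 0.81 (UGT74B1), −0.22 to 0.12 (UGT74D1) and −1.12 to 0.55 (UGT76C2). For temporal over control it ran from −0.21 to 0.71 (UGT74B1), −1.49 to 0.18 (UGT76C2) and −0.24 to 0.080 (UGT84A4), and for prolonged over temporal from −0.99 to 0.64 (CYP71B38), −0.064 to 0.20 (CYP71B6) and −0.15 to 0.35 (UGT74B1). CYP71B27 and UGT71C1 had signals too low to test.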
